A study of Homo sapiens with 12 samples.

Results

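The glutathione peroxidases described here are GPX1, GPX2, GPX3, GPX4 and GPX8, 5 of the 58288 genes listed in the table of transcripts per 1000000 (TPM), and they were chosen by gene symbol. RNA-Seq was performed in FaDu cells, a human head and neck squamous cell carcinoma (HNSCC) line that carries Cas9. Cells with a non-targeting guide RNA (NT2, STING WT) and cells with a guide RNA against STING (A63, STING KO) were left unirradiated (0Gy) or given 4 daily fractions of 2 Gy (RT). Each of the 4 groups had 3 libraries. All groups therefore share Cas9, the lentiviral guide vector and puromycin selection, and differ in the guide and in radiation. Each genotype is represented by a single guide, whether the KO cells are a clone or a pool is not given in the sources used here, and neither is the time of RNA collection after the last fraction.

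Glutathione peroxidases reduce hydrogen peroxide or lipid hydroperoxides, and the classical members draw the electrons from glutathione, which glutathione reductase regenerates with NADPH. In most members the reaction runs at a selenocysteine, an amino acid inserted at a UGA codon that would otherwise end translation, whereas GPX7 and GPX8 use a cysteine and act in the endoplasmic reticulum. Ionizing radiation generates reactive oxygen species in cells, so the enzymes that remove peroxides are of interest in irradiated tumor cells.

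The codon that separates the selenium-dependent members from GPX8 is given in capitals within 63 bases of coding sequence of 1 GENCODE release 29 transcript per gene, 5′ to 3′ on the coding strand, because it marks how the member that changed most in WT cells differs from the others.

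GPX1: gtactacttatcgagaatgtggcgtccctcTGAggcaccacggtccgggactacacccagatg

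GPX2: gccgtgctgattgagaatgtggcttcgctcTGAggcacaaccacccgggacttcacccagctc

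GPX3: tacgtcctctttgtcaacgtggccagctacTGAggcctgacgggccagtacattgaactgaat

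GPX4: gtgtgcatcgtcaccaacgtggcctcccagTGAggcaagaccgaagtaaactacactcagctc

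GPX8: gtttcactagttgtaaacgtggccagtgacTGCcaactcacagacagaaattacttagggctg

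In GPX1, GPX2, GPX3 and GPX4 the capitals are the TGA codon that GENCODE annotates as selenocysteine, and in GPX8 they are the TGC cysteine codon that aligned with it. On GRCh38 this codon lies at chr3:49358132-49358134 in exon 1 of 2 of GPX1 (minus strand, codon 49 of 203). It lies at chr14:64942607-64942609 in exon 1 of 2 of GPX2 (minus strand, codon 40 of 190) and at chr5:151025469-151025471 in exon 2 of 5 of GPX3 (plus strand, codon 73 of 226). In GPX4 it is at chr19:1105403-1105405 in exon 3 of 7 (plus strand, codon 73 of 197), and in GPX8 at chr5:55161024-55161026 in exon 2 of 3 (plus strand, codon 79 of 209). The translated coding sequences of GPX1 and GPX2 were identical at 67.4% of aligned residues (128 of 190), whereas all other pairs lay between 33.7% and 42.9%, so GPX1 and GPX2 are the closest pair in sequence. GPX1 and GPX2 were also the closest pair in the printed window, with 48 of 63 bases identical.

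TPM is normalised for transcript length and for the library total, so levels can be compared between genes. All 5 members passed the filter on low values (at least 3 of the 12 libraries with a TPM of 1 or above), which left 15973 genes. GPX4, the enzyme that reduces phospholipid hydroperoxides in membranes and restrains ferroptosis, was the most abundant member in every library (204 to 248 TPM). GPX1, the widely expressed cytosolic enzyme, came next in every library with 40.7 to 155 TPM. GPX8, the peroxidase of the endoplasmic reticulum membrane, ranged from 7.52 to 23.2 TPM, GPX2, known from the gastrointestinal epithelium, from 7.49 to 16.9 TPM, and GPX3, the secreted enzyme of plasma, from 5.38 to 16.2 TPM. GPX4 and GPX1 did not overlap with each other or with the remaining members. The order of GPX8, GPX2 and GPX3 depended on the group. In unirradiated WT cells GPX8 lay above GPX2 and GPX2 above GPX3 without overlap, in irradiated WT cells GPX3 lay above the overlapping GPX8 and GPX2, and in irradiated KO cells all 3 overlapped. In unirradiated KO cells GPX8 lay above GPX3, and GPX2 overlapped with both. Of the remaining family members in the table, GPX5 and GPX6 were listed at 0 in all libraries, and GPX7 was listed at 0 in every WT library and reached at most 0.181 TPM in KO cells.

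**Figure D1:**
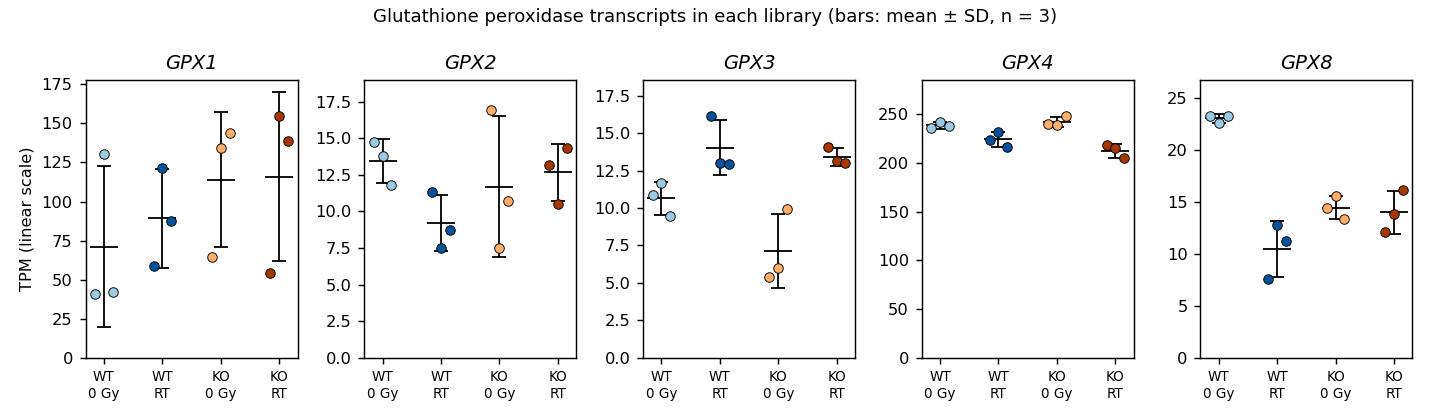
TPM of each member on a linear scale in the 12 libraries, by group, with points for libraries and bars for the mean ± SD of 3 libraries. GPX8 sits at 22.5 to 23.2 TPM in unirradiated WT cells and at most at 16.1 TPM in every other library, while the GPX1 libraries of a group differ by up to 3.21-fold.

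The check of the targeted gene and of the tissue used few values. TMEM173, which encodes STING, was at 21.1 to 26.1 TPM in WT libraries and at 5.18 to 7.41 TPM in KO libraries, without overlap. All 7 markers of squamous epithelium were detected, with summed levels of 3164 to 3532 TPM in unirradiated and 2638 to 3159 TPM in irradiated WT cells, and of 3812 to 5550 and 3462 to 4331 TPM in the corresponding KO cells. The 5 immune markers summed to 16.3 to 22.3 TPM in unirradiated and 24.8 to 31.4 TPM in irradiated WT cells, and to 14.7 to 24.8 and 17.2 to 25.0 TPM in the corresponding KO cells. Nearly all of this was CD68, since PTPRC, which defines leukocytes, did not exceed 0.0894 TPM. The 3 endothelial markers summed to 11.5 to 13.9 TPM in unirradiated and 18.3 to 18.6 TPM in irradiated WT cells, and to 13.0 to 15.9 and 19.9 to 23.9 TPM in KO cells, of which most was CDH5. CDH5 rose from a mean of 9.57 to 15.01 TPM in WT cells (limma adjusted p = 0.0285) and from 10.9 to 17.3 TPM in KO cells (adjusted p = 0.0261). VWF had group means of 2.84 to 4.27 TPM and did not pass, and PECAM1 was at or below 0.0989 TPM in all libraries. The 4 fibroblast markers summed to 6.34 to 9.29 TPM with LUM at 0 in all libraries, and the 3 erythroid markers to at most 0.241 TPM with ALAS2 at 0. The part of the markers that moved with radiation in the results for the family was not tested.

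The first comparison asked how radiation affected the family in WT cells. GPX8 was the only one of the 5 members called, and its mean TPM fell by 54.4%. GPX2 and GPX4 were also lower and GPX3 higher in every irradiated library than in any unirradiated library, but these differences did not pass the test. In all, 1 of 5 members was called and 4 of 5 did not overlap between the groups, against a background of 3.74% of the 15973 tested genes called and 24.8% without overlap. The members' median log2 change was -0.090, and that of all tested genes was 0.017. With 3 libraries against 3, an exact two-sided permutation test of a single gene cannot go below p = 0.1, which each of the 4 members without overlap reached.

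The GPX8 level was 23.2, 22.5 and 23.2 TPM in the unirradiated WT libraries (23.0 ± 0.40, SD, n = 3) and 7.52, 12.7 and 11.2 TPM in the irradiated WT libraries (10.5 ± 2.67, SD, n = 3). All 3 irradiated libraries were low, and replicate 1 was the lowest of them. On the log2(TPM + 1) scale GPX8 fell by 1.09 (SE 0.16, 95% CI -1.44 to -0.74, limma with Benjamini-Hochberg adjusted p = 0.00506). In bulk RNA, fewer expressing cells and less RNA per cell cannot be told apart. The call held in 19 of 20 alternatives and was lost when only the 6 WT libraries entered the limma fit (adjusted p = 0.0541).

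GPX2 was at 14.7, 13.8 and 11.8 TPM in unirradiated WT libraries and at 11.3, 7.52 and 8.76 TPM after radiation, a log2 difference of -0.51 (SE 0.24, limma adjusted p = 0.296). GPX2 was lower in all irradiated libraries, and their highest value came close to the lowest unirradiated one. GPX3 was at 10.9, 11.7 and 9.48 TPM before and 16.2, 13.0 and 13.0 TPM after radiation, a log2 difference of 0.36 (SE 0.18, limma adjusted p = 0.315). GPX4 was at 236, 242 and 237 TPM before and 224, 232 and 216 TPM after radiation, a log2 difference of -0.090 (SE 0.040, limma adjusted p = 0.275). The difference in GPX4 was small but its libraries were also the closest together of the 5 members. GPX1 was at 40.7, 131 and 42.0 TPM before and 58.6, 121 and 87.4 TPM after radiation, a log2 difference of 0.48 (SE 0.54, 95% CI -0.72 to 1.69, limma adjusted p = 0.708). A single unirradiated library, replicate 2, stood above all irradiated ones, and the interval leaves room for either direction. The log2 difference was 1.03 without that library and 0.20 without unirradiated replicate 1.

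In KO cells the members that passed the test were GPX3, which rose by 1.89-fold in mean TPM, and GPX4, which fell by 12.2%. GPX8 differed by less than the spread between libraries. The 2 called members of 5 did not overlap between irradiated and unirradiated KO libraries, against a background of 3.69% of tested genes called and 24.3% without overlap. The members' median log2 change was -0.031, beside 0.019 for all tested genes.

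GPX3 was at 5.38, 6.01 and 9.95 TPM in unirradiated KO libraries (7.11 ± 2.47, SD, n = 3) and at 14.1, 13.1 and 13.0 TPM in irradiated KO libraries (13.4 ± 0.58, SD, n = 3). The irradiated libraries were close together, whereas replicate 3 of the unirradiated group was higher than the other two. The log2 change was 0.87 (SE 0.18, 95% CI 0.48 to 1.26, limma with Benjamini-Hochberg adjusted p = 0.0261). The call was lost in 8 of 20 alternatives. It was lost without unirradiated KO replicate 1 or 2 (limma adjusted p = 0.0788 and 0.0903), without irradiated KO replicate 1, 2 or 3 (0.0791, 0.0716 and 0.0687) and with only the 6 KO libraries in the fit (0.127), while the log2 change stayed between 0.72 and 1.11.

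The GPX4 level was 239, 238 and 248 TPM in unirradiated KO libraries (242 ± 5.24, SD, n = 3) and 218, 215 and 204 TPM in irradiated KO libraries (212 ± 7.17, SD, n = 3). Every irradiated library was low. The log2 change was -0.19 (SE 0.040, 95% CI -0.28 to -0.097, limma with Benjamini-Hochberg adjusted p = 0.0327). The call was lost in 12 of 20 alternatives, with log2 changes between -0.22 and -0.16. Among them it was lost without unirradiated KO replicate 1, 2 or 3 (limma adjusted p = 0.0757, 0.0786 and 0.116), without irradiated KO replicate 1, 2 or 3 (0.0531, 0.0806 and 0.1) and without irradiated WT replicate 1 (0.0526).

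GPX8 was at 14.4, 15.5 and 13.3 TPM in unirradiated KO libraries and at 12.035, 13.8 and 16.1 TPM in irradiated KO libraries, a log2 difference of -0.046 (SE 0.16, 95% CI -0.40 to 0.31, limma adjusted p = 0.916). The groups overlapped, and the interval does not reach the change measured in WT cells. GPX2 was at 16.9, 7.49 and 10.7 TPM before and 13.2, 10.5 and 14.3 TPM after radiation, a log2 difference of 0.17 (SE 0.24, limma adjusted p = 0.78). GPX1 was at 64.2, 134 and 144 TPM before and 54.1, 155 and 138 TPM after radiation, a log2 difference of -0.031 (SE 0.54, 95% CI -1.23 to 1.17, limma adjusted p = 0.986). In both groups replicate 1 of GPX1 was far below the others.

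**Figure D2:**
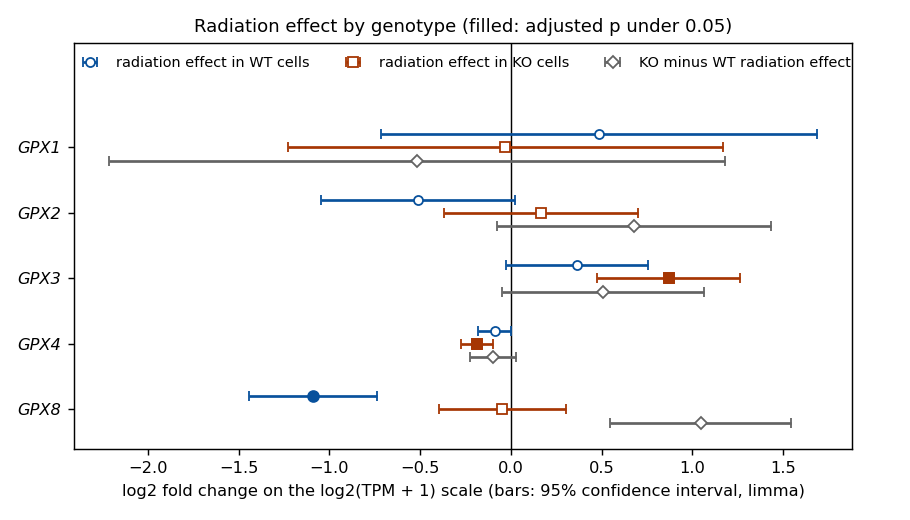
log2 fold change after radiation in WT cells (circles) and KO cells (squares) and the difference between them, KO minus WT (diamonds), with 95% confidence intervals from limma, filled where the adjusted p was under 0.05. GPX8 is filled in WT cells only at -1.09, GPX3 at 0.87 and GPX4 at -0.19 are filled in KO cells only, and no difference is filled.

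A call in WT cells and none in KO cells does not show that genotypes differ, so the difference between the radiation effects was tested directly. None of the 5 members passed, against 0.0188% of tested genes called (3 of 15973, all higher, 0% lower). At an unadjusted p under 0.05, limma counted 1 of the 5 members, GPX8, beside 6.61% of tested genes. GPX8 had the largest difference of the members, with the log2 effect of radiation 1.05 higher in KO than in WT cells (SE 0.22, 95% CI 0.55 to 1.54, limma adjusted p = 0.423), and it was at rank 31 of all tested genes in this test. For the called members of KO cells, the difference was 0.51 for GPX3 (limma adjusted p = 0.764) and -0.097 for GPX4 (limma adjusted p = 0.839). GPX3 was higher and GPX4 lower after radiation in both genotypes without overlap of the libraries. In WT cells neither passed (limma adjusted p = 0.315 and 0.275). Of all tested genes 24.8% did not overlap in WT and 24.3% in KO cells, and the share in both genotypes was not computed. The difference between the radiation effects was 0.68 for GPX2 (limma adjusted p = 0.767) and -0.52 for GPX1 (limma adjusted p = 0.939). That of GPX1 ranged from -1.06 without unirradiated WT replicate 2 to -0.042 without irradiated KO replicate 1.

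The genotypes were then compared at each dose. Without radiation, 0 of 5 members passed in limma and 1, GPX8, did not overlap, against 1.73% of tested genes called and 20.6% without overlap. GPX8 differed by -0.64 in log2 (SE 0.16, 95% CI -0.99 to -0.29, limma adjusted p = 0.0866), from 22.5 to 23.2 TPM in WT libraries to 13.3 to 15.5 TPM in KO libraries. It passed when irradiated WT replicate 1 was left out (limma adjusted p = 0.0158) and when only the 6 unirradiated libraries were fitted (0.0236). The comparison shares the unirradiated WT libraries with the radiation comparison in WT cells. GPX3 differed by -0.56 with overlapping libraries (limma adjusted p = 0.173), and without unirradiated KO replicate 3 by -0.80 (limma adjusted p = 0.0106). GPX1 (0.81), GPX2 (-0.25) and GPX4 (0.022) did not pass, and GPX1 ranged from 0.53 without unirradiated WT replicate 1 to 1.36 without unirradiated WT replicate 2. At an unadjusted p under 0.05, 2 of the 5 members, GPX3 and GPX8, were counted, beside 14.3% of tested genes.

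In irradiated cells, 0 of 5 members passed in limma and none was without overlap, against 3.59% of tested genes called and 24.1% without overlap. GPX8 was higher by 0.41 in KO than in WT cells (95% CI 0.053 to 0.76, limma adjusted p = 0.212), and it was the only member with an unadjusted p under 0.05, beside 17.9% of tested genes. Without irradiated WT replicate 1 the difference in GPX8 was 0.20. The remaining log2 differences, KO minus WT, were 0.43 for GPX2, 0.30 for GPX1, -0.056 for GPX3 and -0.075 for GPX4. That of GPX1 ranged from 0.020 without irradiated KO replicate 2 to 0.77 without irradiated KO replicate 1. Mean GPX8 in KO cells was thus 14.4 ± 1.11 TPM without and 14.0 ± 2.06 TPM with radiation (SD, n = 3 each), between the 23.0 and 10.5 TPM of WT cells.

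The spread between libraries of a group differed widely among the members. The SD of log2(TPM + 1), pooled over the 4 groups with 8 degrees of freedom, was 0.75 for GPX1, 0.33 for GPX2, 0.24 for GPX3, 0.21 for GPX8 and 0.039 for GPX4, and the median of all tested genes was 0.15. This placed GPX1 at the 98.6th percentile of spread although its level was at the 87th percentile, and GPX4 at the 3.04th percentile of spread with a level at the 96th percentile. GPX2, GPX3 and GPX8, with levels at the 43.9th, 43rd and 49.2th percentiles, were at the 85.9th, 72.8th and 67.4th percentiles of spread. A log2 change of a given size therefore had a much wider interval in GPX1 than in GPX4. The spread of GPX3 rested largely on unirradiated KO replicate 3 (0.13 without it) and that of GPX8 on irradiated WT replicate 1 (0.13 without it).

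**Figure D3:**
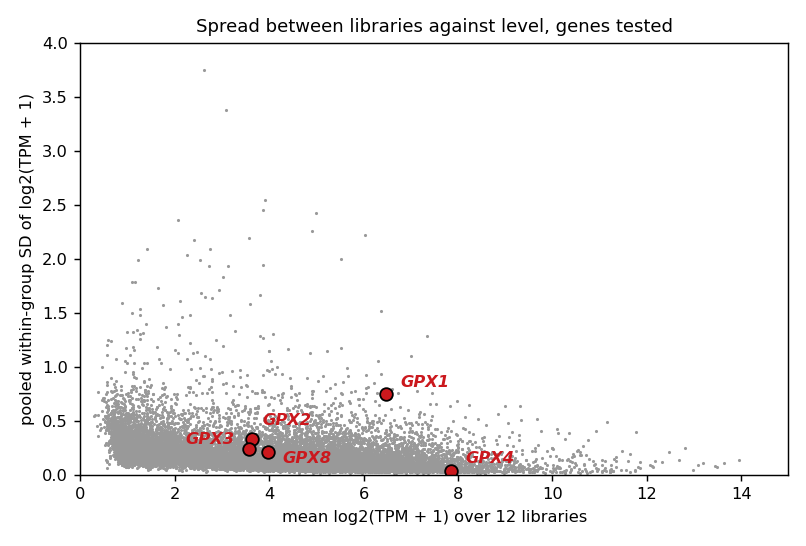
Pooled within-group SD of log2(TPM + 1) against the mean log2(TPM + 1) over 12 libraries for the tested genes (grey points, 1 per gene), with the 5 members in red and both axes in log2 units. GPX1 at 0.75 lies above most genes of its level and GPX4 at 0.039 lies at the lower edge.

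GPX1 was lowest in replicate 1 of all 4 groups, at 40.7, 58.6, 64.2 and 54.1 TPM. Its highest libraries were 131, 121, 144 and 155 TPM, and from the lowest to the highest library it spanned 3.80-fold, compared with 1.21-fold for GPX4. RHOA, which lies 544 bases from GPX1 on the same strand, was at 378 to 450 TPM with a pooled SD of 0.078. The annotation of GPX1 also differed from the other members, since GENCODE release 29 lists it as a polymorphic pseudogene and under another version of the identifier than the deposited table. How reads at GPX1 were assigned was not tested. GPX2 lies within CHURC1 (60.4 to 85.7 TPM) and the readthrough gene CHURC1-FNTB (2.80 to 27.6 TPM), and GPX8 within CDC20B (at most 0.0128 TPM), each on the opposite strand and with 0 shared exon bases, and the strand setting of the quantification is not given in the sources used here.

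The genes lie on GRCh38 at chr3:49357171-49358600 (GPX1), chr14:64939152-64942905 (GPX2), chr5:151020438-151028993 (GPX3), chr19:1103926-1106791 (GPX4) and chr5:55160118-55167071 (GPX8). GPX3 and GPX8 are thus on the same chromosome but far apart.

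The summed TPM of the 5 members was 356 ± 55.3 in unirradiated and 347 ± 35.6 in irradiated WT cells, and 389 ± 44.1 and 368 ± 50.2 in KO cells (SD, n = 3 each). Within each genotype the mean sums with and without radiation differed by less than either SD, and the libraries of all 4 groups overlapped. GPX4 made up 52.8% to 73.3% of the sum and GPX1 12.5% to 38.0%.

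**Figure D4:**
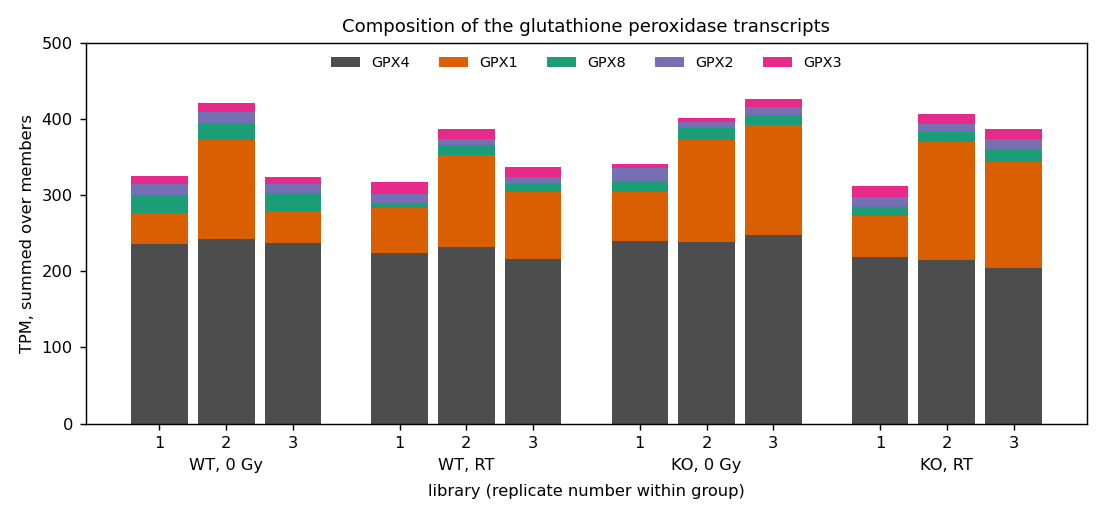
Stacked TPM of the 5 members in each of the 12 libraries, by group and replicate number, on a linear axis from 0. GPX4 forms a nearly even base of 204 to 248 TPM and the bars differ mostly in the GPX1 layer, whereas GPX8, GPX2 and GPX3 form thin upper layers.

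The pathways around the family were examined as lists of genes. For glutathione synthesis and recycling, 24 of 28 genes were tested. In WT cells 4 of them fell and 0 rose after radiation, and in KO cells 4 fell and 1 rose, with list medians of -0.036 and -0.089 beside 0.017 and 0.019 for all tested genes. Of all tested genes 2.24% rose and 1.5% fell in WT cells, and 2% rose and 1.7% fell in KO cells. SLC7A11, the cystine importer that supplies the cysteine for glutathione, fell from 28.7 ± 1.49 to 20.3 ± 0.68 TPM in WT cells (log2 change -0.48, limma adjusted p = 0.00325) and from 22.2 ± 0.30 to 15.8 ± 1.20 TPM in KO cells (-0.47, adjusted p = 0.00372). GCLC, the catalytic subunit of the rate-limiting enzyme of glutathione synthesis, fell in WT cells from 75.4 ± 2.24 to 47.9 ± 7.27 TPM (log2 change -0.65, limma adjusted p = 0.0078). In KO cells it was at 71.3 ± 6.71 and 55.7 ± 2.17 TPM and did not pass (-0.35, limma adjusted p = 0.0993).

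ME1, the cytosolic malic enzyme, which makes NADPH, fell by 0.19 on the log2 scale in both WT and KO cells (limma adjusted p = 0.0286 and 0.0284). In KO cells the other calls of this list included ABCC1, which exports glutathione conjugates, at -0.34 (limma adjusted p = 0.0262), and GLRX2, a glutaredoxin, at 0.54 (adjusted p = 0.0388). In WT cells these were at -0.20 and 0.053 (limma adjusted p = 0.15 and 0.875). The regulatory subunit GCLM (-0.15 in WT and 0.0025 in KO cells), the synthase GSS (-0.085 and -0.067) and the reductase GSR (-0.0076 and -0.16) did not pass in either genotype. Between genotypes SLC7A11 and LAP3, an aminopeptidase that cleaves cysteinylglycine, were the 2 genes of the list that passed, and both were lower in KO cells. Of all tested genes 0.463% were called higher and 1.26% lower without radiation, and 0.927% higher and 2.66% lower with it. SLC7A11 differed by -0.36 without and -0.35 with radiation (limma adjusted p = 0.0189 and 0.0149) and LAP3 by -0.29 and -0.31 (adjusted p = 0.0288 and 0.0137).

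A further list held 12 tested genes, of other routes of hydrogen peroxide removal and of the superoxide dismutases SOD1 and SOD2. Of these, CAT, which encodes catalase, was the only call in each radiation comparison. It fell from 53.3 ± 1.60 to 40.0 ± 1.92 TPM in WT cells (log2 change -0.41, limma adjusted p = 0.00638) and from 58.8 ± 2.89 to 45.5 ± 2.87 TPM in KO cells (-0.36, adjusted p = 0.0113). PRDX6, a peroxiredoxin that uses glutathione, was at 0.13 and 0.049 and did not pass. The list medians were -0.039 and -0.031. Among all tested genes 3.74% were called after radiation in WT cells and 3.69% in KO cells.

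In the list of selenocysteine incorporation 15 of 15 genes were tested, and SEPHS2, the selenophosphate synthetase that is itself a selenoprotein, was the only call, rising in WT cells by 0.24 (limma adjusted p = 0.00668), beside 0.12 in KO cells (adjusted p = 0.104). It was lower in irradiated KO than in irradiated WT cells by 0.15 (-0.15, limma adjusted p = 0.0475). Among all tested genes 2.24% were called higher after radiation in WT cells, and 2.66% lower in irradiated KO than in irradiated WT cells. Among 17 tested other selenoproteins, SEPHS2 and SELENOS, a protein of endoplasmic reticulum-associated degradation, rose in WT cells (SELENOS 0.21, limma adjusted p = 0.045). In KO cells SELENOS was at -0.022 (limma adjusted p = 0.864) and limma called 0 of the 17, while 3 had an unadjusted p under 0.05, which 18.1% of all tested genes had there. TXNRD1, the cytosolic thioredoxin reductase, was at 770 ± 78.4 and 741 ± 27.6 TPM in WT cells and 822 ± 11.5 and 828 ± 13.2 TPM in KO cells, and did not pass. The medians of the 2 lists lay between -0.029 and 0.030 in the radiation comparisons.

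For ferroptosis and lipid peroxide metabolism, the setting in which GPX4 is known, 26 of 30 genes were tested. Of these, 2 rose and 2 fell in WT cells, while 1 rose and 2 fell in KO cells. Among all tested genes 2.24% rose and 1.5% fell in WT cells, and 2% rose and 1.7% fell in KO cells. SAT1, a polyamine acetyltransferase, rose by 0.37 in WT and 0.38 in KO cells (limma adjusted p = 0.0221 and 0.0206). SCD, the stearoyl-CoA desaturase, fell by 0.20 and 0.24 (limma adjusted p = 0.0092 and 0.00345). PTGS2, a cyclooxygenase, rose in WT cells from 1.83 ± 0.35 to 3.36 ± 0.31 TPM (log2 change 0.63, limma adjusted p = 0.0208), and FTL, the ferritin light chain, fell there by 0.13 (adjusted p = 0.0486). In KO cells PTGS2 was at 0.077 (limma adjusted p = 0.796) and FTL at -0.12 (adjusted p = 0.051). In KO cells MBOAT1, an acyltransferase of membrane phospholipids, fell by 0.40 (limma adjusted p = 0.0358), beside -0.21 in WT cells (adjusted p = 0.238). Among irradiated libraries PTGS2 was lower in KO (-0.55, limma adjusted p = 0.0331) than in WT, and DHCR7, a reductase of cholesterol synthesis, was higher (0.37, adjusted p = 0.034). ACSL4, which activates polyunsaturated fatty acids, was at 0.062 and 0.25 and did not pass.

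For thiol oxidation in the endoplasmic reticulum, the compartment of GPX8, 15 of 15 genes were tested, and limma called 0 in any comparison, while 3 in each radiation comparison had an unadjusted p under 0.05. Of all tested genes 18.2% had such a p in WT and 18.1% in KO cells. The list medians were 0.040 in WT and 0.0077 in KO cells after radiation. In the limma test of the difference between the radiation effects 0 genes were called in each list. Some lists share genes, so their counts are not separate. SEPHS2 is in those of selenocysteine incorporation and other selenoproteins, and SELENOF in those of other selenoproteins and thiol oxidation. PRDX4 is in those of thiol oxidation and hydrogen peroxide removal. An unadjusted p under 0.05 was found for 4 of 17 other selenoproteins, beside 6.61% of all tested genes. It was found for 2 of 24 genes of glutathione synthesis and recycling and 2 of 15 of selenocysteine incorporation. For ferroptosis it was 1 of 26, for thiol oxidation 1 of 15 and for hydrogen peroxide removal with the superoxide dismutases 0 of 12.

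The genes whose log2(TPM + 1) was most like each member over the 12 libraries were taken from all other tested genes by Pearson's r, as a description, since the libraries share the 4 groups. GPX8 was most like AC115618.3 (0.885), PALLD (0.868) and CNOT6LP1 (0.866), and GPX3 most like GRIPAP1 (0.956), AC016831.1 (0.932) and PSMD11 (0.926). GPX4 was most like FAM83H (0.937), RPS4X (0.936) and RAP2B (0.931). GPX1 was most like AC068647.2 (0.904), C1orf220 (0.868) and SSR2 (0.863), and GPX2 most like NAT1 (0.877), RNU7-47P (0.862) and FBL (0.852). Some of these genes were at low levels, with CNOT6LP1 at 0.375 to 1.4 TPM and RNU7-47P at 0 to 1.3 TPM. C1orf220 was at 0.663 to 2.37 TPM and AC016831.1 at 0.464 to 4.52 TPM. Each r was picked as among the highest of 15972 genes over only 12 libraries. Between members r lay from -0.585 (GPX3 and GPX4) to 0.366 (GPX4 and GPX8).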

How the data were processed

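RNA-Seq of 12 FaDu libraries was quantified by the authors as TPM per gene, and the deposited table lists 58288 genes without a filter, each library summing to 1000000. The submitters' processing notes name HISAT2, StringTie, DESeq2 and hg38, and versions, annotation and strand setting are not given in the sources used here. Columns named NT2 (a non-targeting guide) and A63 were read as WT and KO, which the column heads of the study's table of relative values also give. TPM keeps no depth, so the error of the tests came from the spread between libraries within groups. In limma this spread was pooled over the 4 groups and moderated across genes. The p-values measure only this spread, which may be technical because separate cultures are not stated.

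From the deposited TPM, log2(TPM + 1) of 15973 genes with TPM of at least 1 in 3 or more libraries was fitted with 4 group means in limma 3.58.1 (R 4.3.3, eBayes with trend, 8 residual degrees of freedom), with Benjamini-Hochberg adjustment over all tested genes and a threshold of 0.05. DESeq2, which needs counts, was not used. The code was tested on simulated data. Fold changes understate those of low genes. Library numbers were not used to pair the samples in the main fit. Annotation and sequences came from GENCODE release 29, read with Biopython 1.88. Of the 58288 identifiers, 58022 matched without their version and 55661 with it.

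Named genes were the members, TMEM173, fixed partners (TXNRD1, GSR, GCLC, GCLM, GSS, SLC7A11, ACSL4, CAT, PRDX6), list genes that passed where at most 4 of a list did, otherwise the 2 largest each way, and the 3 genes most like each member. Values of these genes in the other genotype, ME1 in KO cells, CDH5 and VWF were added after they were seen, and 1 list gene is not reported here. Members and lists were chosen with earlier results of these data known. Alternatives were a pseudocount of 0.1, no filter, a stricter filter (mean TPM 5 or above), scaling by median-of-ratios or quantiles, eBayes without trend, a replicate block, only the libraries compared, and each library left out.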

Additional observations from a re-analysis of the deposited data

How the results depend on the processing

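The alternatives were computed for the members and for counts over all genes, not for the other genes named. TPM gives no depth, and 3 libraries per group limit the precision. Taken over all tested genes, same-numbered libraries did not deviate together (18 pairs, r of deviations -0.060 to 0.064). Such an r cannot show whether single genes did, and GPX1 was lowest in replicate 1 of all 4 groups. Whether libraries of a number share a batch was not tested. With the replicate block, the counts of genes called were 315 (WT) and 359 (KO) after radiation, 378 for genotype after radiation and 1 for the difference, and 0 members were called in KO cells after radiation (GPX3 adjusted p = 0.0626, GPX4 0.0672, limma).

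With only the libraries compared, limma called 166 (WT) and 195 (KO) genes after radiation, and 103 and 252 for genotype without and with radiation, with 0 members called in either radiation comparison and 1 member, GPX8, for genotype without radiation. The fit then has fewer samples. For the difference, 7 genes were called without a filter and 1 without trend. In the main fit it was 597, 590, 276, 573 and 3. In KO cells 0 members were called after radiation without a filter (GPX3 adjusted p = 0.0542, GPX4 0.05), 1 with quantile scaling and 1 without trend, where limma adjusted p of GPX4 was 0.0588 and 0.0792. The cause was not tested.

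Leaving out each library in turn gave 242 to 526 genes (WT) and 268 to 553 (KO) after radiation, 172 to 292 and 313 to 542 for genotype without and with radiation, and 1 to 9 for the difference. The members called ranged from 0 to 2 in KO cells after radiation and from 0 to 1 for genotype without radiation. Pooled SDs ranged from 0.13 to 0.25 for GPX3 and from 0.13 to 0.23 for GPX8. The signs that turned were all of uncalled differences with a library left out. They were, with all values of the libraries left out, GPX1 (-0.40 to 0.44, above 0 at 0.13, 0.18 and 0.44), GPX2 (-0.091 to 0.45) and GPX8 (-0.15 to 0.050, above 0 at 0.0046 and 0.050) after radiation in KO cells, and GPX2 without radiation (-0.53 to 0.0080) and GPX3 with radiation (-0.11 to 0.042) for genotype.

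Scaling by median-of-ratios moved the share of calls that were higher from 59.8% to 49.5% (WT) and from 54.1% to 41.7% (KO) after radiation, and from 26.8% to 37.6% for genotype without radiation. Quantile scaling moved it from 25.8% to 35.8% for genotype with radiation.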
